A study of Mus musculus with 6 samples.

Results

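A set of 10 genes of the Notch pathway was followed through the 4 lists of Smad binding sites from mouse embryos. They are the receptors Notch1, Notch2 and Notch3, the ligands Jag1, Jag2 and Dll1, and the transcriptional targets Hes1, Hey1, Hey2 and Heyl. The 10 were listed by name out of 21887 protein-coding genes, and a peak was assigned to a gene when its summit lay inside the gene or within 50 kb of either end. By this rule 175 peaks belonged to the 10 genes. The molar pSmad1/5 list gave 43 of its 35476 peaks, the limb pSmad1/5 list 48 of 23389, the molar Smad4 list 28 of 34561 and the limb Smad4 list 56 of 29756.

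The lists came from chromatin immunoprecipitation and sequencing (ChIP-seq) of tissue from wild-type CD1 embryos at E13.5, a stage of mid-gestation, with 1 library per tissue and antibody. The groups were molar pSmad1/5, limb pSmad1/5, molar Smad4 and limb Smad4, and all 4 were unmutated and untreated. Whether limb means forelimb or hindlimb, how many embryos were pooled, and how many reads each library held are not given in the sources used here. Groups without replicates allow no test between tissues or antibodies, and peak lists do not allow the tissue labels to be checked against marker genes.

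Notch signalling runs between touching cells. A Jagged or Delta ligand on one cell binds a Notch receptor on its neighbour, the receptor is cut, and its intracellular part enters the nucleus and joins the DNA-binding protein RBPJ to switch on genes of the Hes and Hey families. Hes and Hey proteins are themselves repressors, and in several cell types Hey1 and Hes1 are also known to respond to bone morphogenetic protein (BMP) signals. pSmad1/5 is the phosphorylated form of the Smads that BMP receptors activate, and Smad4 is their shared partner. In mice, Jag2 is required for normal digit separation and tooth and palate development.

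Sequences upstream of 3 members are shown because the peaks below lie in them or beside them. They are RefSeq promoter sequences on GRCm38.p6, whose coordinates are those of mm10. That table held 7 of the 10 members. The Notch2 stretch is the 250 bases before the start, chr3:98013288-98013537 on the plus strand, with the limb Smad4 peak in capitals. The Hey2 stretch is chr10:30842781-30843033 on the minus strand, the 250 bases before the start and 3 after it, with the RBPJ letters GTGGGAA or their complement in capitals. The Jag1 stretch is the 250 bases before the start, chr2:137116521-137116770 on the minus strand, with the Smad4-binding letters CAGAC in capitals.
Notch2: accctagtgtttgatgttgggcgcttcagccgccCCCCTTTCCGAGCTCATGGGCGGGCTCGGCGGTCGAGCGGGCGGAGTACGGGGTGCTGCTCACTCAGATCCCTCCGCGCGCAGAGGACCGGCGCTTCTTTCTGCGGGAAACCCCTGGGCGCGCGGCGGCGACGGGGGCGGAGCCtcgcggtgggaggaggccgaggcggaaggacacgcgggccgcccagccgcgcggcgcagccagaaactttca
Hey2: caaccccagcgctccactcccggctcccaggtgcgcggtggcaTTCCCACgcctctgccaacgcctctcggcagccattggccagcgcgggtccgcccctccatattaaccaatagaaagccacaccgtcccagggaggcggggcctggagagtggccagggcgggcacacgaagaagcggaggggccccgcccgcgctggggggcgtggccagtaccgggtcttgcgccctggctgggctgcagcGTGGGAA
Jag1: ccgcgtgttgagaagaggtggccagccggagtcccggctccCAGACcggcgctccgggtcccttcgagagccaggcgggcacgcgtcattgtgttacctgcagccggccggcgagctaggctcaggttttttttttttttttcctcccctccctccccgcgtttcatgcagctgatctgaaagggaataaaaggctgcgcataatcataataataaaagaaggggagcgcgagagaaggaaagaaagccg

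Letters of 4 motifs were searched on both strands in the 300-base windows of the table, and no motif contains another. GTGGGAA stood in 6.38% of 32851 windows and in 1 of the 7 members, Hey2, where it occurs at 207 and at 4 bases before the start. At least 2 copies, a limit taken from Hey2 itself, stood in 0.256% of the windows, so this share is no test of Hey2. CAGAC stood in 49.6% of windows and in 3 members (Jag1, Dll1 and Notch3). The GC-rich letters GGCGCC, which Smad1/5 can bind, stood in 11.9% of windows and in 2 members (Dll1 and Hey2). The palindrome GTCTAGAC stood in 0.213% of windows and in none of the 7. The Notch1, Notch2 and Jag2 windows held none of these letters. A match describes letters in a window and not a bound site.

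All 10 members had a limb pSmad1/5 peak, and 8 of 10 had a peak in each of the other 3 lists. Among all protein-coding genes the same rule found a peak for 74.9% in molar pSmad1/5, 68.0% in limb pSmad1/5, 68.0% in molar Smad4 and 71.2% in limb Smad4. Counts of 8 of 10 are thus near the background. With an enrichment score of at least 4, a peak was left at 4 of 10 members in molar pSmad1/5 (27.8% of all genes), 5 in limb pSmad1/5 (34.3%), 4 in molar Smad4 (39.0%) and 7 in limb Smad4 (43.4%). Notch1, Notch2, Jag2, Hes1, Hey2 and Heyl had a peak in all 4 lists, as did 44.4% of all genes. In the pSmad1/5 lists, Jag1 and Dll1 had none in molar and a peak in limb, a pattern of 7.92% of all genes. No member showed the opposite pattern, which 14.8% of all genes did. In the Smad4 lists, Hey1 had peaks in molar and none in limb (12.0% of all genes), and Notch3 had none in molar and peaks in limb (15.2%).

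Peaks within 1 kb of a gene end were more unevenly spread between the lists. In molar pSmad1/5 they occurred at 7 of 10 members (Notch1, Notch2, Jag2, Hes1, Hey1, Hey2 and Heyl), against 20.7% of all genes. In limb pSmad1/5 they occurred at 2 members (Jag1 and Hes1), against 15.5%. In molar Smad4 they occurred at 2 (Hes1 and Heyl), against 7.76%, and in limb Smad4 at 6 (Notch1, Notch2, Jag2, Dll1, Hes1 and Hey2), against 21.8%. Thus 6 members had such a pSmad1/5 peak in molar and none in limb, a pattern found in 15.7% of all genes, and 1 (Jag1) had the opposite (10.4%). The molar end peak of Jag2 had a score of 2.97, below the lowest score of the limb pSmad1/5 list on its chromosome (3.0025). For Smad4, 5 members had none in molar and a peak in limb, a pattern of 19.6% of genes, and 1 (Heyl) had the opposite (5.56%). At Jag1 limb pSmad1/5 was the single list with such a peak, as at 5.82% of genes. With a score of at least 4, the counts were 1 in molar pSmad1/5, 1 in limb pSmad1/5, 0 in molar Smad4 and 3 in limb Smad4, where all genes also fell, to 4.37%, 5.57%, 2.26% and 9.73%. With the p-value of the peak call at most 0.0001, there were 3 of 10 in molar pSmad1/5 (14.7% of all genes), 1 in limb pSmad1/5 (9.11%), 1 in molar Smad4 (4.31%) and 4 in limb Smad4 (14.6%). With equal numbers of top-scoring peaks per chromosome in all lists, there were 6 in molar pSmad1/5 (13.0%), 2 in limb pSmad1/5 (11.5%), 0 in molar Smad4 (4.20%) and 5 in limb Smad4 (14.6%).

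**Figure D1:**
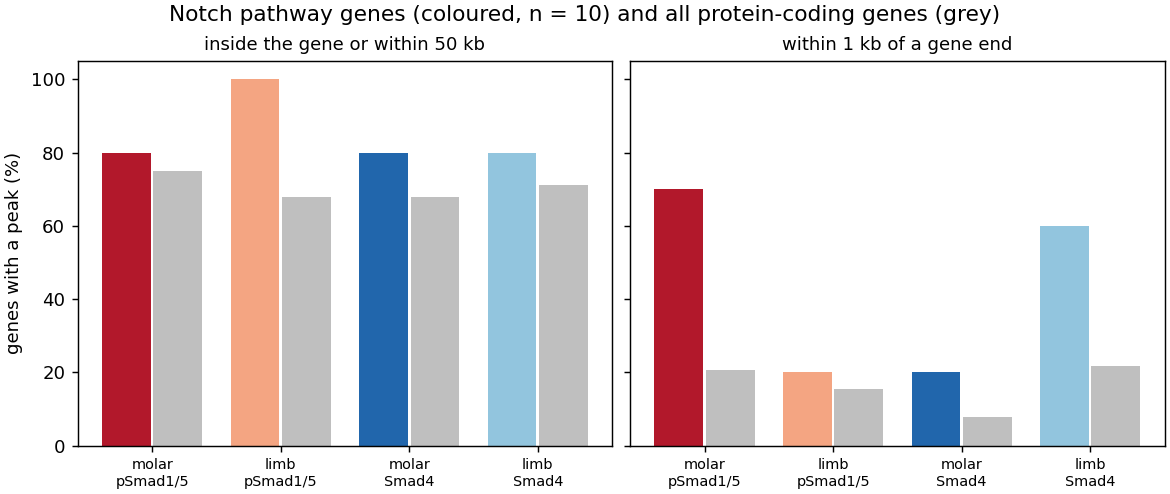
Share of genes with a peak (%, y axis) in each list (x axis), for the 10 Notch pathway genes (coloured bars) and all 21887 protein-coding genes (grey bars); left, summit inside the gene or within 50 kb, right, within 1 kb of a gene end. On the right, molar pSmad1/5 (7 of 10) and limb Smad4 (6 of 10) stand above their grey bars by the most.

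Peak numbers differed widely between members, as the plot of peaks by gene shows. Jag2 had 39 over the 4 lists, Notch2 31, Notch1 30, Hes1 20, Heyl 14 and Dll1 13. Notch3 and Hey1 had 9 each, and Jag1 and Hey2 5 each. Gene length sets part of the searched stretch, which ran from 102.4 kb for Hes1 to 236.8 kb for Notch2. List density also differed between chromosomes, so each count is given beside the number that a stretch of its size would hold at the list's density around protein-coding genes of that chromosome. The count lay above that number at 6 of 10 members in molar pSmad1/5, against 48.1% of all genes, and at 9 in limb pSmad1/5 (48.1%), 7 in molar Smad4 (46.0%) and 7 in limb Smad4 (48.1%). No peak was found in 6 of the 40 pairs of member and list. The mean number of peaks per gene was 4.3 at the members and 3.03 over all genes in molar pSmad1/5, 4.8 and 2.47 in limb pSmad1/5, 2.8 and 2.35 in molar Smad4, and 5.6 and 3.28 in limb Smad4. In these means a peak counts once for each gene whose surroundings hold it.

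**Figure D2:**
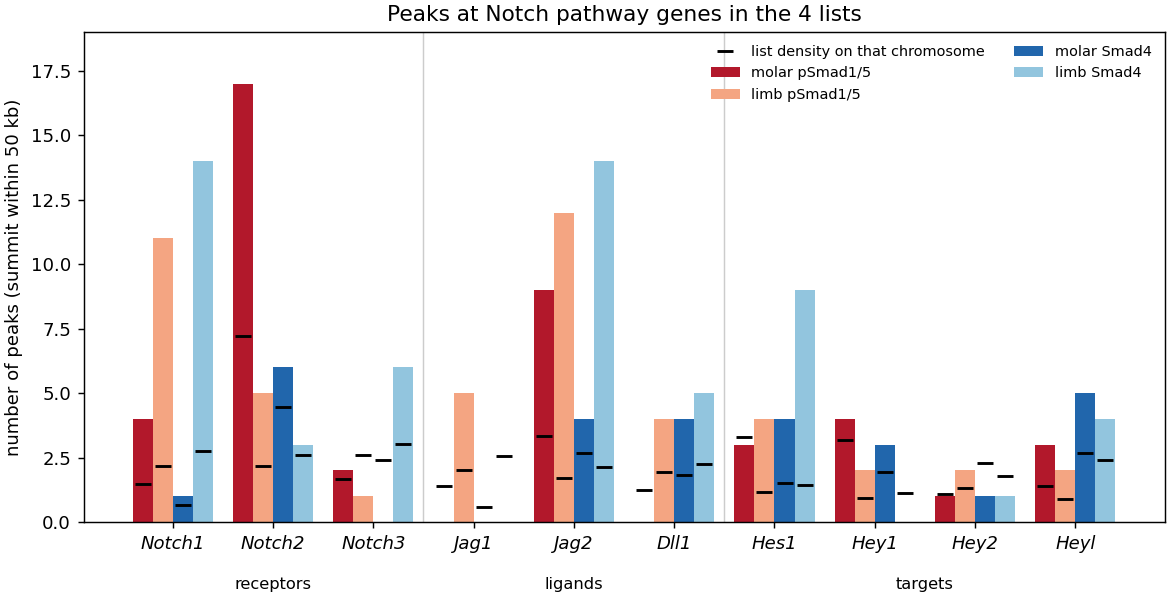
Number of peaks with a summit inside the gene or within 50 kb (y axis) at each of the 10 genes (x axis) in the 4 lists (bars), with the number expected at the density of that list around genes of the same chromosome (black dashes). Notch1, Jag2 and Hes1 stand farthest above the dashes in limb Smad4, and Notch2 in molar pSmad1/5.

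Among the receptors, Notch1 was marked mainly in limb. It had 4 molar and 11 limb pSmad1/5 peaks, where list density gave 1.49 and 2.18. It had 1 molar and 14 limb Smad4 peaks, where list density gave 0.647 and 2.75. The molar Smad4 list holds few peaks on chromosome 2, where its lowest score is 4.0006 and the limb list's is 3.00003. With a score of at least 4, 1 molar and 5 limb Smad4 peaks remained at Notch1, and equal numbers of top-scoring peaks also left 1 and 5. Its pSmad1/5 counts were 0 in molar and 5 in limb with that score limit, and 2 and 7 with equal numbers. At the 5′ end of Notch1, molar pSmad1/5 had a peak of score 3.67 whose summit lay 611 bp inside the gene (chromosome 2, 26503192 to 26503247). Limb Smad4 had peaks there at 210 bp (26503564 to 26503656, score 4.95) and at 350 bp (score 4.31, 12 bp wide). Limb Smad4 also had a peak of score 4.49 at 769 bp from the 3′ end.

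Notch1 was the only member at which limb pSmad1/5 and limb Smad4 peaks overlapped, and they did so at 2 sites. Inside the gene, 2513 bp from its 3′ end, the pSmad1/5 peak (26460368 to 26460443, score 4.71) and the Smad4 peak (26460386 to 26460454, score 3.13) shared 58 bp and their summits lay 1 bp apart. The other site lay 36850 bp from the 5′ end, outside the gene, with scores of 4.14 and 3.36 and summits 13 bp apart. Over the whole lists, 4.85% of limb pSmad1/5 peaks overlapped a limb Smad4 peak. At the 10 genes 2 of 48 did, so the share was near that of the list.

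Notch2, the longest of the 10 genes at 136.8 kb, had more peaks in molar than in limb. It had 17 molar and 5 limb pSmad1/5 peaks, where list density gave 7.22 and 2.16, and 6 molar and 3 limb Smad4 peaks, where it gave 4.47 and 2.59. The pSmad1/5 counts stood above list density by a similar factor in both tissues, so by that measure the tissues were alike. On chromosome 3 the pSmad1/5 lists hold 3635 molar and 922 limb peaks, and their lowest scores are 2.0002 and 3.0001. Of the 17 molar peaks, 1 had a score of at least 4, and none of the 5 limb peaks did. Taking equal numbers of top-scoring peaks per chromosome left 6 molar and 5 limb pSmad1/5 peaks at Notch2, so the larger molar count lay mostly in peaks of low score.

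The start of Notch2 carried the highest-scoring Smad4 peak of all 10 genes. Limb Smad4 had a peak of 144 bp and score 5.78 with its summit 90 bp before the start, the stretch in capitals above. Molar pSmad1/5 had a peak of 138 bp and score 3.55 just inside the gene, with its summit 109 bp after the start (chromosome 3, 98013598 to 98013735). The peaks did not overlap, and their summits lay 199 bp apart. The molar Smad4 peak nearest to the start lay at 3959 bp, and the limb pSmad1/5 peak nearest to it at 28312 bp.

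Notch3, the receptor of vascular mural cells, had few pSmad1/5 peaks. It had 2 molar and 1 limb pSmad1/5 peaks, where list density gave 1.66 and 2.58. It had 0 molar and 6 limb Smad4 peaks, where list density gave 2.42 and 3.02. No Notch3 peak lay within 1 kb of a gene end in any list. Its highest-scoring peak, a limb Smad4 peak of score 5.41, lay inside the gene, 20625 bp from its 3′ end (chromosome 17, 32141413 to 32141461). The lowest scores of the 4 lists on chromosome 17 all lie between 3.00003 and 3.0014.

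Jag1 was the most one-sided member. All 5 of its peaks were limb pSmad1/5 peaks, and the other 3 lists had 0 peaks within 50 kb, where list density gave 1.38 for molar pSmad1/5, 0.599 for molar Smad4 and 2.55 for limb Smad4. Jag1 lies on chromosome 2, as Notch1 does, where the molar Smad4 list starts at a score of 4.0006. A peak in limb pSmad1/5 alone occurred at 1.07% of all genes. Of the 5 peaks, 4 flanked the 5′ end. Their summits lay 909 bp before it (score 4.41), 592 bp before it (score 6.94), 366 bp after it (score 4.24) and 1506 bp after it (score 4.91). The peak 592 bp before the start (chromosome 2, 137117078 to 137117125) had the highest score of the 175, above 99.9% of the limb pSmad1/5 peaks on its chromosome. None of the 4 touched the 250 bases printed above, which lie between the peaks on either side of the start. At least 4 limb pSmad1/5 peaks within 2 kb of the same gene end were found at 10 of 21887 genes (0.0457%), Jag1 among them, a count made after its values were seen.

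The extent of this cluster depended on how strictly peaks were called. With the p-value of the call at most 0.0001, 1 of the 5 Jag1 peaks remained. With a score of at least 4 there were 4, and with equal numbers of top-scoring peaks 4.

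**Figure D3:**
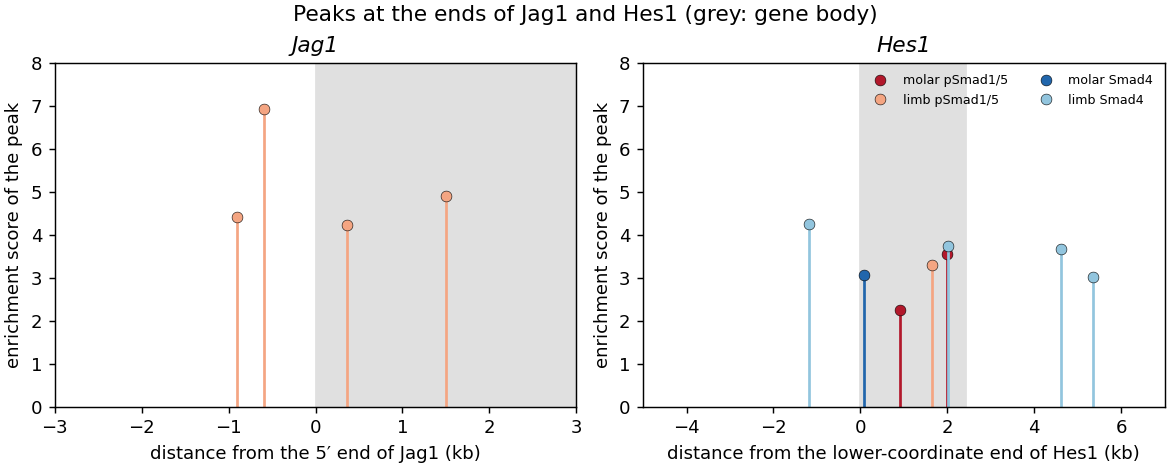
Enrichment score of the peaks close to the gene end (y axis) against its distance in kb (x axis) from the 5′ end of Jag1 (left) and from the lower-coordinate end of Hes1 (right), with the gene body in grey and colours for the lists. The 4 Jag1 peaks drawn are all from limb pSmad1/5, with the other, 22959 bp inside the gene, beyond the axis; at Hes1 each list has a peak inside the gene.

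Within 50 kb Jag2 had the most peaks of the 10 genes, 39 over the 4 lists. Within 10 kb it had 18 and Notch2 24, within 100 kb it had 55 and Notch1 56, and of peaks nearest to the counted gene it had 20 and Notch2 26. It had 9 molar and 12 limb pSmad1/5 peaks, where list density gave 3.33 and 1.69, and 4 molar and 14 limb Smad4 peaks, where it gave 2.67 and 2.14. On chromosome 12 the lowest listed pSmad1/5 score is 2.0002 in molar and 3.0025 in limb. Molar peaks inside the gene with scores of 2.97, 2.09 and 2.98 lay below that limb score. Equal numbers of top-scoring peaks per chromosome left 7 molar and 12 limb pSmad1/5 peaks at Jag2. Inside the 22.01 kb gene lay 4 molar and 5 limb pSmad1/5 peaks, and 0 molar and 7 limb Smad4 peaks. The highest-scoring was a limb pSmad1/5 peak of score 5.83 (chromosome 12, 112928493 to 112928540), with its summit 971 bp after the start listed by RefSeq and 1288 bp from the annotated gene end. A limb Smad4 peak of score 3.06 lay 272 bp after that start. Of the 39 peaks, 19 lay nearer to a neighbouring gene (9 to Gpr132, 4 to Brf1, 3 to Btbd6 and 3 to Nudt14).

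Sites shared between lists at Jag2 lay beyond its 5′ end and nearer to those neighbours. Molar and limb pSmad1/5 peaks overlapped by 53 bp at 10567 bp from the gene (112940331 to 112940409, score 4.58 in molar, 112940357 to 112940415, score 3.68 in limb), where Nudt14 is the nearest gene. The deposited p-values of these calls were 2.90e-14 in molar and 0.000695 in limb. This was the only site of the 10 genes held by pSmad1/5 in both tissues. Such sites were rare in the whole lists too, where 1.11% of molar and 1.70% of limb pSmad1/5 peaks overlapped the other tissue. At the 10 genes 1 of 43 molar and 1 of 48 limb peaks did, so the scarcity is not particular to them. A molar pSmad1/5 peak (score 3.75) and a limb Smad4 peak (score 3.54) overlapped by 82 bp at 20644 bp, nearest to Brf1.

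Dll1, a Delta ligand of somites and other embryonic tissues, had 0 molar and 4 limb pSmad1/5 peaks, where list density gave 1.25 and 1.94. It had 4 molar and 5 limb Smad4 peaks, where it gave 1.82 and 2.27. The tissues differed in place. The molar Smad4 peaks lay 28228 bp or more from the gene, whereas all 5 limb Smad4 peaks lay within 5 kb of it. The limb Smad4 peaks nearest to the 5′ end had scores of 5.15 (chromosome 17, 15376530 to 15376585, 358 bp inside) and 3.46 (1409 bp inside). Between the gene's ends limb pSmad1/5 had a single peak, of score 4.37, 3373 bp from the 3′ end.

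Among the targets, Hes1 was the member with an end peak in every list. Genes with a peak within 1 kb of an end in all 4 lists made up 0.297% of all genes (65 of 21887), and Hes1 was the single member among them. This rested on peaks of low score: Hes1 kept end peaks in 0 lists with a score of at least 4, in 2 with the p-value at most 0.0001 (both molar lists), and in 3 with equal numbers of top-scoring peaks (all but molar Smad4). Of all genes, 1, 10 and 22 had end peaks in all 4 lists under these limits. At 2.44 kb it is the shortest of the 10, so that most of the gene lies within 1 kb of an end. Within 50 kb it had 3 molar and 4 limb pSmad1/5 peaks, where list density gave 3.30 and 1.17, and 4 molar and 9 limb Smad4 peaks, where it gave 1.52 and 1.45. No other protein-coding gene lay nearer to any of these 20 peaks.

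Inside Hes1 a molar pSmad1/5 peak (chromosome 16, 30067320 to 30067386, score 3.56) and a limb Smad4 peak (30067345 to 30067402, score 3.75) overlapped by 42 bp, with summits 21 bp apart. A limb pSmad1/5 peak (30066855 to 30067055, score 3.29) lay beside them without overlap. The molar Smad4 peak (30065402 to 30065451, score 3.07) lay at the other end of the gene, 90 bp from it. A second molar pSmad1/5 peak inside the gene had a score of 2.26, below the lowest score of the limb pSmad1/5 list on that chromosome (3.0033).

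Hey1 had a molar pSmad1/5 peak within 1 kb of each end, and no molar Smad4 peak there. It had 4 molar and 2 limb pSmad1/5 peaks, where list density gave 3.16 and 0.946, and 3 molar and 0 limb Smad4 peaks, where it gave 1.96 and 1.13. As at Notch2, the lowest pSmad1/5 scores on this chromosome are 2.0002 in molar and 3.0001 in limb, and a molar Hey1 peak scored 2.04. Equal numbers of top-scoring peaks left 3 molar and 2 limb pSmad1/5 peaks at Hey1. Molar pSmad1/5 had a peak of score 5.12 475 bp outside the higher-coordinate end (chromosome 3, 8667469 to 8667519), the highest score of molar pSmad1/5 at the 10 genes and above 99.6% of that list on chromosome 3. The gene nearest to this peak was the neighbour LOC115489673 and not Hey1. A further molar pSmad1/5 peak lay 325 bp inside the lower-coordinate end (score 3.15). A molar Smad4 peak lay inside the gene, 1465 bp from that end (score 3.40). The limb pSmad1/5 peaks lay 28408 and 31489 bp away. The strand of Hes1, Hey1 and Heyl was not in the tables used here, so their ends are named by coordinate.

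Hey2 had 5 peaks in all, none of which overlapped a peak of another list. It had 1 molar and 2 limb pSmad1/5 peaks, where list density gave 1.09 and 1.33, and 1 molar and 1 limb Smad4 peak, where it gave 2.30 and 1.80. The molar pSmad1/5 summit lay 8 bp inside the gene (chromosome 10, 30842726 to 30842783, score 3.08), and the peak reached into the RBPJ letters that span the start in the sequence above. The limb Smad4 summit lay 496 bp inside (score 3.36), and the molar Smad4 summit 2013 bp before the start (score 3.25). The limb pSmad1/5 peaks (scores 3.45 and 3.75) lay beyond the 3′ end, 29158 and 29036 bp away. The peak at 29036 bp lay at the start of Ncoa7, a nuclear receptor coactivator gene, with its summit 3 bp inside that gene.

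Heyl had 3 molar and 2 limb pSmad1/5 peaks, where list density gave 1.41 and 0.907, and 5 molar and 4 limb Smad4 peaks, where it gave 2.68 and 2.42. It held the only site of the 10 genes where molar pSmad1/5 and molar Smad4 overlapped. There the pSmad1/5 peak (chromosome 4, 123233880 to 123233925, score 3.12) lay within the Smad4 peak (123233878 to 123233955, score 3.26), with summits 348 and 360 bp inside the lower-coordinate end. Over the whole lists, 0.589% of molar pSmad1/5 peaks overlapped a molar Smad4 peak, and at the 10 genes 1 of 43 did. Both peaks of this site were lost with a score of at least 4, with the p-value at most 0.0001 and with equal numbers of top-scoring peaks. A higher molar pSmad1/5 peak, of score 4.84, lay 6005 bp inside the gene, and a limb pSmad1/5 peak of score 3.89 lay 3332 bp inside.

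**Figure D4:**
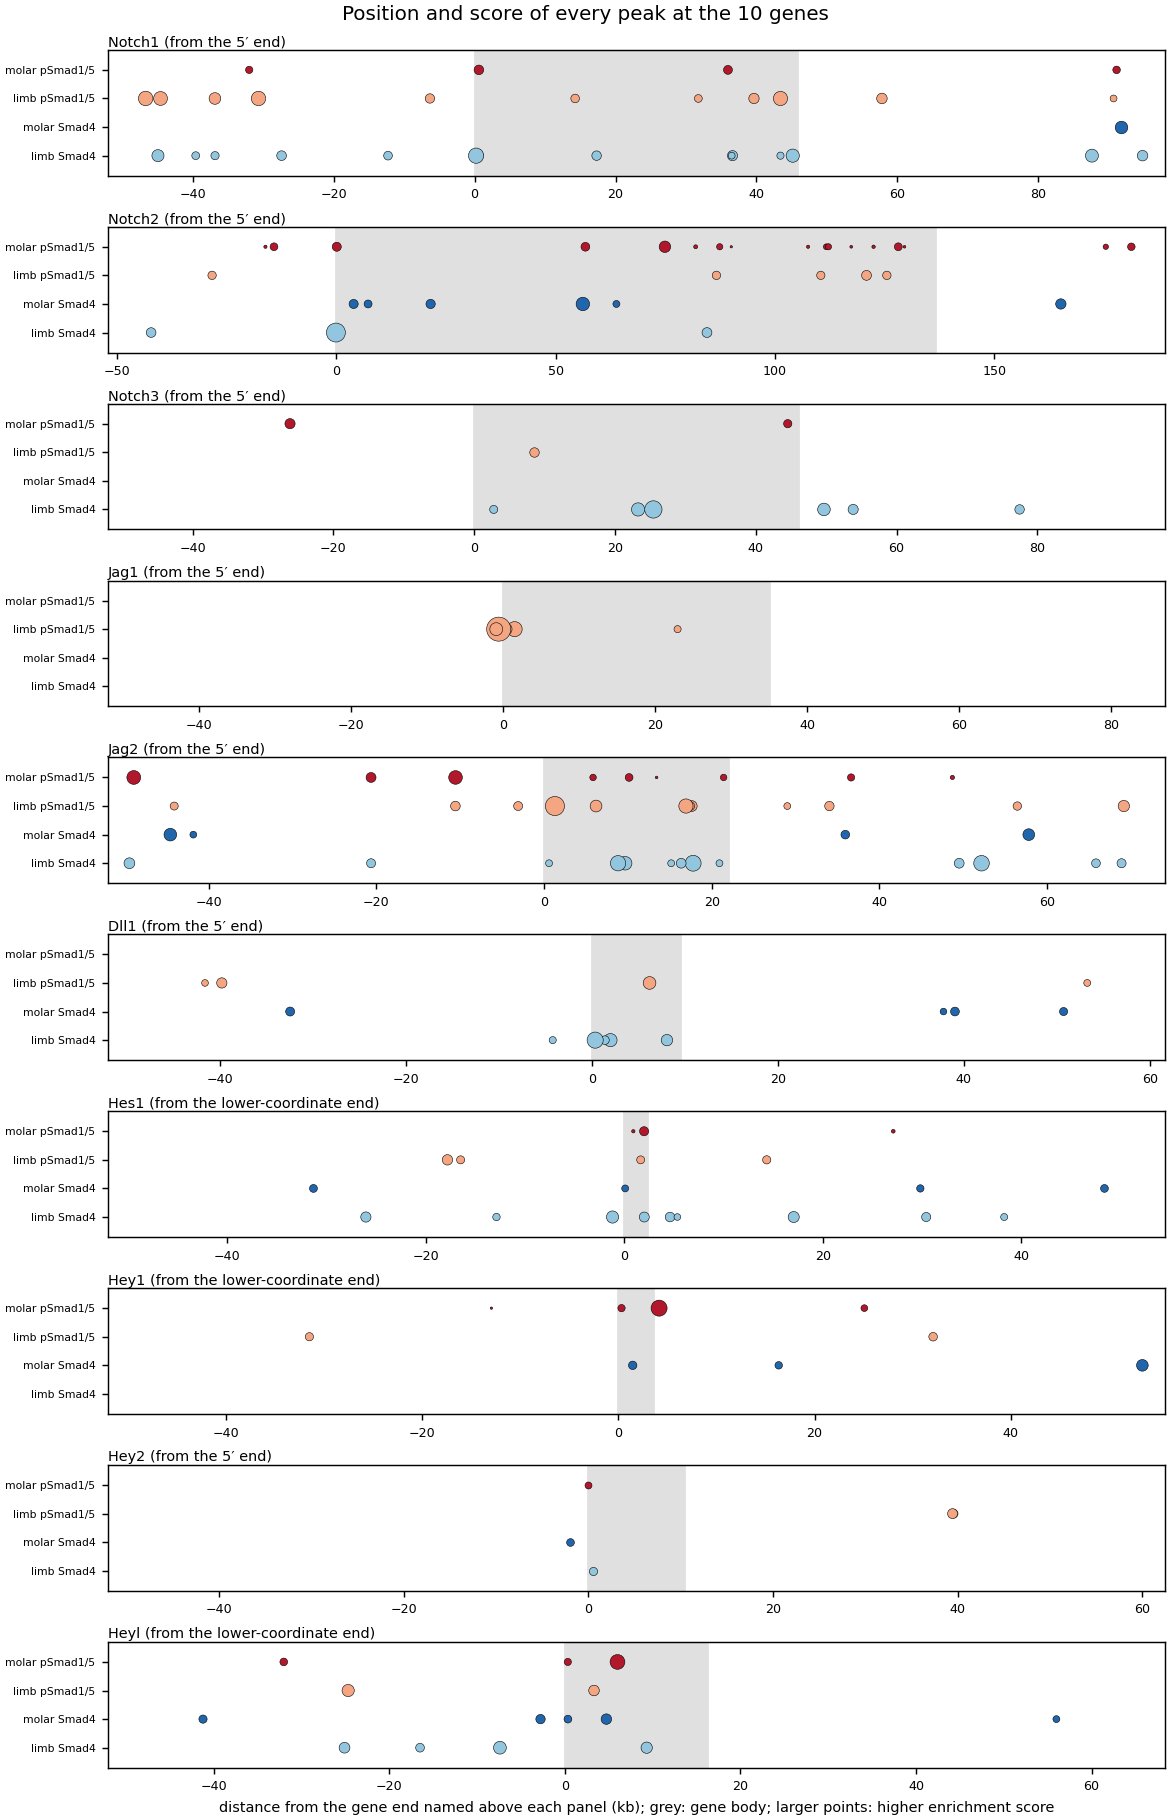
Position of every peak (x axis, kb from the gene end named above each panel, gene body in grey) in the 4 lists (rows) at the 10 genes, with larger points for higher enrichment scores. The 5 Jag1 peaks are all from limb pSmad1/5, and the 5 limb Smad4 peaks at Dll1 lie within 5 kb of the gene.

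Taking all 10 genes, 6 pairs of peaks from different lists overlapped, at 4 genes: 2 at Notch1, 2 at Jag2, 1 at Hes1 and 1 at Heyl. These held 12 of the 175 peaks (6.86%), and over all peaks of the 4 lists the share that overlapped another list was 4.15%. Of the 6 pairs, 2 joined molar pSmad1/5 with limb Smad4, 2 joined limb pSmad1/5 with limb Smad4, 1 joined the pSmad1/5 lists and 1 joined the molar lists. No pair joined the Smad4 lists of both tissues, where 0.443% of all molar Smad4 peaks overlap limb Smad4. By list, the shares at the 10 genes were 9.30% in molar pSmad1/5, 6.25% in limb pSmad1/5, 3.57% in molar Smad4 and 7.14% in limb Smad4, where the whole lists had 3.43%, 6.64%, 1.29% and 6.37%. With 1 to 4 overlapping peaks per list, these shares rest on few peaks.

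The scores of the 175 peaks lay mostly in the middle of their lists. Median scores at the 10 genes were 3.13 in molar pSmad1/5, 3.66 in limb pSmad1/5, 3.38 in molar Smad4 and 3.72 in limb Smad4. The medians of the whole lists were 2.9995, 3.44, 3.38 and 3.53 in that order. Above the median of their own list and chromosome lay 25 of 43 molar pSmad1/5, 30 of 48 limb pSmad1/5, 14 of 28 molar Smad4 and 37 of 56 limb Smad4 peaks. Scores of at least 5 were found at 8 peaks, 1 of them from molar (Hey1) and 7 from limb. The limb lists as a whole also had higher upper scores. Their 95th percentiles were 4.77 for pSmad1/5 and 5.07 for Smad4, against 4.36 and 4.63 in molar. Above the 95th percentile of their own list lay 4 of 43 molar and 4 of 48 limb pSmad1/5 peaks. For Smad4 it was 0 of 28 in molar and 4 of 56 in limb.

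**Figure D5:**
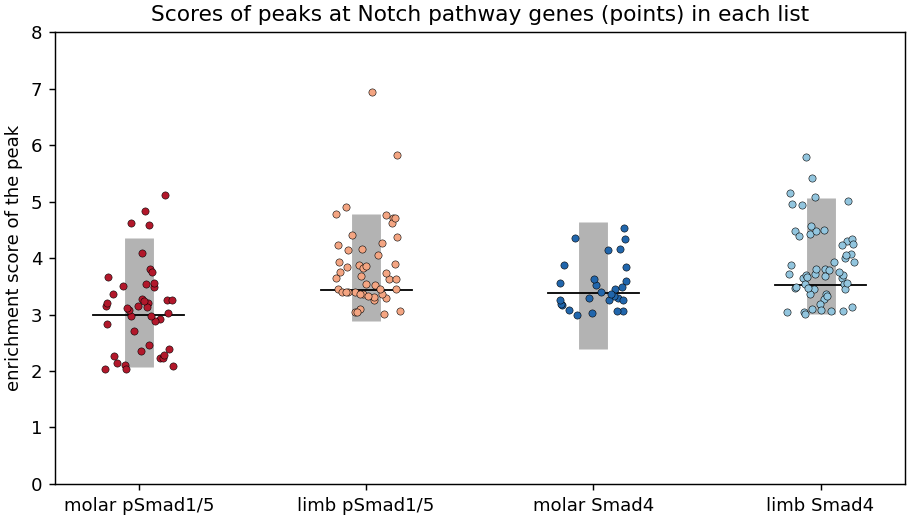
Enrichment score of each peak (points, y axis) at the 10 genes in each list (x axis), over the range from the 5th to the 95th percentile of the whole list (grey) and its median (black line). The point at 6.94 is the limb pSmad1/5 peak before Jag1, and no molar Smad4 point exceeds the grey range.

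The rest of the pathway was described with a list of 41 other genes: receptors, ligands, proteases, modifiers of the receptors, RBPJ with its cofactors, and further Hes genes. In molar pSmad1/5 a peak was found for 37 of 41 (90.2%), against 74.9% of all genes, and in limb pSmad1/5 for 39 (95.1%), against 68.0%. In molar Smad4 it was 37 (90.2%), against 68.0%, and in limb Smad4 38 (92.7%), against 71.2%. Gene length was not matched, and the list holds genes as long as 418 kb. The list was also chosen with earlier results of these data known, so its shares are a description and not independent support. Within 1 kb of an end there were 11 in molar pSmad1/5, 12 in limb pSmad1/5, 4 in molar Smad4 and 16 in limb Smad4, or 26.8%, 29.3%, 9.76% and 39.02%, where all genes had 20.7%, 15.5%, 7.76% and 21.8%. The pSmad1/5 counts at gene ends were thus 11 in molar and 12 in limb for these 41 genes, beside 7 and 2 for the 10 members. Every gene of this list had a peak in at least 2 lists, where 80.5% of all genes did, and 32 of 41 had one in all 4, where 44.4% of all genes did.

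End peaks in 2 or more lists were found at 12 of the 41 and at 6 of the 10 members (Notch1, Notch2, Jag2, Hes1, Hey2 and Heyl), against 16.8% of all genes. Those with 3 lists were Hes5, a Notch target, and Fbxw7, which marks the Notch intracellular part for degradation. The nearest Hes5 summits lay 476 bp from an end in molar pSmad1/5, 523 bp in molar Smad4 and 775 bp in limb Smad4. For Fbxw7 they lay at 307 bp in molar and 241 bp in limb pSmad1/5, and at 445 bp in limb Smad4. Nrarp, a feedback inhibitor induced by Notch, had 5 molar and 17 limb pSmad1/5 peaks, the nearest at 494 and 12 bp from an end. It had 3 molar and 10 limb Smad4 peaks. The pSmad1/5 lists hold 1470 molar and 2155 limb peaks on its chromosome, and counts of these 41 genes are not set beside list density here. Dll4, the Delta ligand of arteries, had limb peaks at 407 bp for pSmad1/5 and 188 bp for Smad4, and no molar peak within 8 kb. The others were Hes2, the Notch inhibitor Numb, the protease gene Adam17, the Deltex genes Dtx1, Dtx2 and Dtx4, and the ligand-activating ubiquitin ligase gene Mib2.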

How the data were processed

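The 4 peak lists were used as deposited, and the 2 input samples were not analysed here. Per the labels, the deposited peaks come from BCP_TF, with 1 list per library. The submitters' processing notes name bcl2fastq, Bowtie2, SAMtools, bedtools, deepTools and mm10. The sources used here do not give how inputs, duplicates and problem regions were treated. Each deposited peak has an enrichment score and a p-value (all under 0.001), which are the authors' own. They served only to describe, rank or filter peaks within a list. Read depth is unknown, so list length is not an amount of binding.

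Genes were taken from RefSeq on GRCm38.p6, without exons, so peaks are placed inside or outside genes only. Starts and strand came from the RefSeq promoter table. List density is the number of summits per base over the merged 50 kb gene surroundings of a chromosome. Peaks overlapped when they shared at least 1 bp. Counting and overlap were tested on simulated data. No test was run, with 1 library per group. The members and lists were chosen with earlier results of these data known. All 10 members are named, and of the other pathway genes those with end peaks in at least 2 lists, with peaks in 1 list or with none. A gene that this rule selects is not reported here. The tools were Python 3.11.15 with matplotlib 3.10.9, scipy 1.17.1, pandas 2.3.3 and numpy 2.4.6.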

Additional observations from a re-analysis of the deposited data

How the results depend on the processing

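The alternatives varied the distance (1, 10 or 100 kb), the minimum score (4), the largest p-value (0.0001), the number of peaks (equal numbers of top-scoring peaks per chromosome) and the overlap rule. Chosen after seeing the data were counts of peaks nearest to the counted gene, equal numbers for shared sites, and all alternatives for end peaks. Most remove peaks by construction. In the order molar pSmad1/5, limb pSmad1/5, molar Smad4 and limb Smad4, a score of at least 4 left 5, 15, 5 and 20 member peaks and end peaks at 1, 1, 0 and 3 members. It left 4 molar pSmad1/5, 5 limb pSmad1/5 and 4 molar Smad4 members with a peak, 24, 21 and 24 other pathway genes in the same lists, and 0 shared sites. Of all genes 27.8%, 34.3% and 39.0% had such a peak in these lists. The p-value limit left 22, 22, 16 and 29 member peaks, and end peaks at 3, 1 and 1 members in the lists other than limb Smad4.

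Within 10 kb there were 27, 25, 11 and 33 member peaks, and in molar Smad4 5 members and 24 other genes. With summits anywhere inside the gene or within 1 kb of it, 4 members had a molar Smad4 peak. Within 100 kb there were 45 molar and 91 limb Smad4 peaks. Equal numbers left 23 molar pSmad1/5 and 15 molar Smad4 peaks, end peaks at 0 members in molar Smad4, and 3 shared sites. Counting only peaks nearest to the gene left 18 molar Smad4 peaks, and 24 limb pSmad1/5 and 23 molar Smad4 genes of the other list. The other 51 of 89 recomputed counts over the 10 members or the 41 other genes stayed within 1.5 times. Of the recomputed counts for single members, 118 moved by more and 122 did not. Among those that moved were limb Smad4 at Notch1 (5 with a score of at least 4, against 14) and Jag2 (4, against 14). No paired analysis was possible because each group has 1 library and no result comes from a test.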

Other observations

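Of the 175 peaks, 53 lay nearer to a protein-coding gene other than the member, from 18 such genes. Near Notch1, 4 peaks lay nearest to Egfl7, an endothelial gene, and 5 to Sec16a, and near Heyl 5 lay nearest to Nt5c1a. Near Hey1 5 of 9 peaks lay nearest to the neighbour LOC115489673, among them the molar pSmad1/5 peak of score 5.12, and near Dll1 3 lay nearest to Fam120b.

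Other genes with at least 4 limb pSmad1/5 peaks within 2 kb of the same end included Cys1, Jam2, Marveld1, Qrich2 and Scx with 4 peaks each, and Pigp and Ttc3 with 5 each. Scx is the transcription factor of tendon progenitors. These were chosen after their values were seen.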
